A study of Homo sapiens with 2 samples.

Results

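The miR-423 locus was described here through its mature names hsa-miR-423-5p and hsa-miR-423-3p, and through hsa-miR-3184-5p and hsa-miR-3184-3p, which are annotated on the opposite strand of the same DNA. These 4 names were taken by exact match from the 2588 mature miRNA names of each library. They had been picked because earlier work on these libraries showed the arms of miR-423 going apart, so the levels and ratios below describe them and test nothing. The lysate came from MDA231 cells, a breast cancer line with basal and mesenchymal features. In the bait library the resin held the long non-coding RNA MACC1-AS1, transcribed in vitro with an MS2 tag and tethered through a maltose-binding protein fused to the MS2 coat protein. In the no-bait library the resin was given no RNA substrate, and the material eluted with maltose was sequenced in the same way. Neither an unrelated RNA nor the MS2 tag alone served as control. With 1 library a group, none of the differences can be set against a spread between replicates.

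A miRNA hairpin is cut by Drosha and Dicer into a short duplex, and an Argonaute protein keeps mainly 1 strand, the guide, while the other, the passenger, is usually degraded. Where both strands are loaded, as is known for miR-423, the arms at the 5′ side (5p) and the 3′ side (3p) act as separate regulators, because target choice rests on the seed, bases 2 to 8. miR-423-5p has been studied as a circulating miRNA in heart failure, and miR-423-3p is often used as a reference in PCR panels.

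RefSeq sequences (GRCh38.p14) of the 4 names are shown because their complementarity bears on how counts can be told apart. Capitals mark the seed.
miR-423-5p: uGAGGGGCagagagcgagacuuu
miR-423-3p: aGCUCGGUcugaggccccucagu
miR-3184-5p: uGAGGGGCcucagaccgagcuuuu
miR-3184-3p: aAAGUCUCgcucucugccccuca
The first 8 bases of miR-423-5p and miR-3184-5p, UGAGGGGC, were identical, and no other name with a RefSeq sequence shared this seed. The seeds of miR-423-3p and miR-3184-3p were each found in 1 name. All 23 bases of miR-3184-3p were the reverse complement of miR-423-5p, and miR-3184-5p was the reverse complement of miR-423-3p over 21 bases.

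The hairpins are shown because they are cut from the 2 strands of 1 stretch of DNA. Capitals here mark the mature arms, the 5p arm first.
MIR423: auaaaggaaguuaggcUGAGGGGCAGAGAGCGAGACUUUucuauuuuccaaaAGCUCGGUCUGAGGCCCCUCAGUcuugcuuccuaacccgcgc
MIR3184: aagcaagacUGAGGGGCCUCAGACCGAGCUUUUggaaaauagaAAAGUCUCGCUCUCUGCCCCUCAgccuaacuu
The plus strand of chr17:30117079-30117172 encodes MIR423, and the minus strand of chr17:30117086-30117160 encodes MIR3184. In GENCODE version 29, which is on GRCh38, the MIR423 hairpin lies within NSRP1, the gene of a nuclear speckle splicing protein on the same strand (30115521 to 30186475). Of 12 NSRP1 transcripts that span the hairpin, 11 have it in an intron and 1 in an exon (30116992 to 30117332). On the minus strand the annotation places it in an intron of the antisense gene AC104984.2. A second minus-strand gene, AC104984.5, has 1 exon over exactly the span of the MIR423 hairpin (30117079 to 30117172).

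miR-423-5p had 1391 counts without bait and 301 with bait, although the bait library was 3.88-fold deeper (1047269 against 269716 counts). Scaled to RPM (counts per 1000000 counts of the library), its level was 5157 RPM without bait (95% Poisson interval 4890 to 5436) and 287 RPM with bait (256 to 322). At its no-bait share it would have had 5401 counts in the bait library. The level with bait was 17.9-fold lower, with an exact conditional binomial 95% interval of 15.8 to 20.4. These intervals, like all others here, cover counting error only and hold no spread between replicates. They treat reads as independent molecules, which was not checked, so they may be too narrow even for counting error. A miRNA was tested where the libraries together gave it at least 30 counts. It was called higher if bait over no bait came to 2 or more, and lower if it came to 0.5 or less, provided that the interval did not contain 1. Under this rule 26.8% of the 231 tested miRNAs were lower (62) and 39.4% higher (91). The minimum is passed at a lower RPM by names found only in the deeper bait library. With no count filter 100 names were lower and 95 higher. miR-423-5p was among the lower of the tested miRNAs. It ranked 17th without bait and 85th with bait.

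miR-423-3p, cut from the same hairpin, was not lower with bait. It had 898 counts without bait and 5507 with bait, or 3329 RPM (3115 to 3555) and 5258 RPM (5120 to 5399). The ratio of 1.58 (1.47 to 1.70) passed neither rule, and 111 of the 231 tested miRNAs had a higher ratio. With DESeq2 size factors in place of totals the ratio was 2.12 (1.97 to 2.27), which counted as higher, as did 49.4% of tested miRNAs under that scaling. It ranked 24th without bait and 21st with bait. The summed level of the miR-423 arms was 8487 RPM without bait and 5546 RPM with it, a ratio of 0.653 (0.623 to 0.686) that passed neither rule.

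Both miR-3184 names had 0 counts in both libraries. A count of 0 allows up to 3 counts, or 2.86 RPM in the bait library and 11.1 RPM in the other. Set against the counts of miR-423 in the same library, 3 counts would be 0.0517% of the locus with bait (0 of 5808 counts) and 0.131% without (0 of 2289). These limits hold only if reads of the 2 strands were counted apart, which no source used here states. Without strand, reads of miR-3184 and of miR-423 cannot be told apart. No ratio between libraries can be given for the miR-3184 names.

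**Figure D1:**
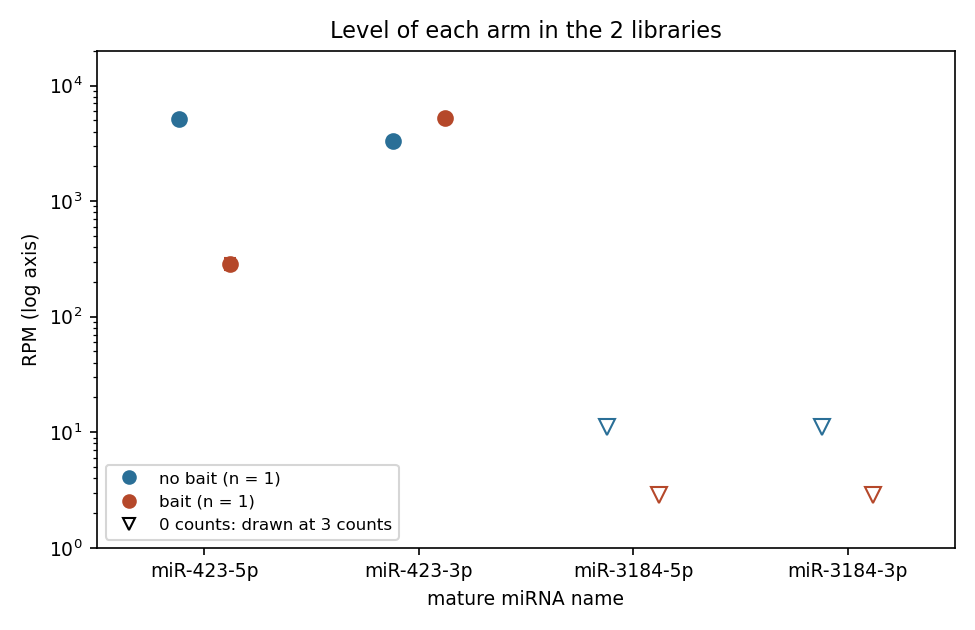
Level of the 4 names in RPM (log axis) in the no-bait library (blue) and the bait library (red), 1 library each, with 95% Poisson intervals that are mostly smaller than the points. miR-423-5p falls from 5157 to 287 RPM while miR-423-3p goes from 3329 to 5258 RPM. Open triangles for miR-3184 stand at 3 counts, the 1-sided 95% limit for a count of 0.

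In the order of levels, miR-423-5p without bait stood between let-7g-5p (5643 RPM) and miR-148a-3p (5128 RPM), and its Poisson interval overlapped both of theirs. With bait it stood between miR-146b-5p (301 RPM) and miR-125b-1-3p (270 RPM), again with overlapping intervals. miR-423-3p without bait was separated by its interval from miR-30a-3p above it (3852 RPM) and not from miR-182-5p below it (3315 RPM). With bait it was separated from miR-221-3p above it (5596 RPM) and not from miR-181a-5p below it (5180 RPM). The arms of miR-423 therefore stood 7 places apart without bait and 64 places apart with bait.

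Among the 17 names with at least its 1391 counts without bait, miR-423-5p had the lowest ratio. This cut was set at its own count in the library where it was higher, so its place there is description only. With miR-423-5p, 6 of the 17 were called lower, against 26.8% of the 231 tested miRNAs. Below the cut, miR-4488 had 1076 counts without bait and was 22.6-fold lower. Within the 17, next above miR-423-5p was miR-151a-3p at 6.94-fold lower (24811 RPM without bait and 3573 RPM with it). miR-222-3p, a miRNA typical of basal breast lines, followed at 5.01-fold lower. Over all 231 tested miRNAs miR-423-5p had the eighth lowest ratio, and the 7 below it had 33 to 1076 counts without bait. The log2 ratio had a median of 0.55 over the tested miRNAs, against -4.17 for miR-423-5p and 0.66 for miR-423-3p.

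**Figure D2:**
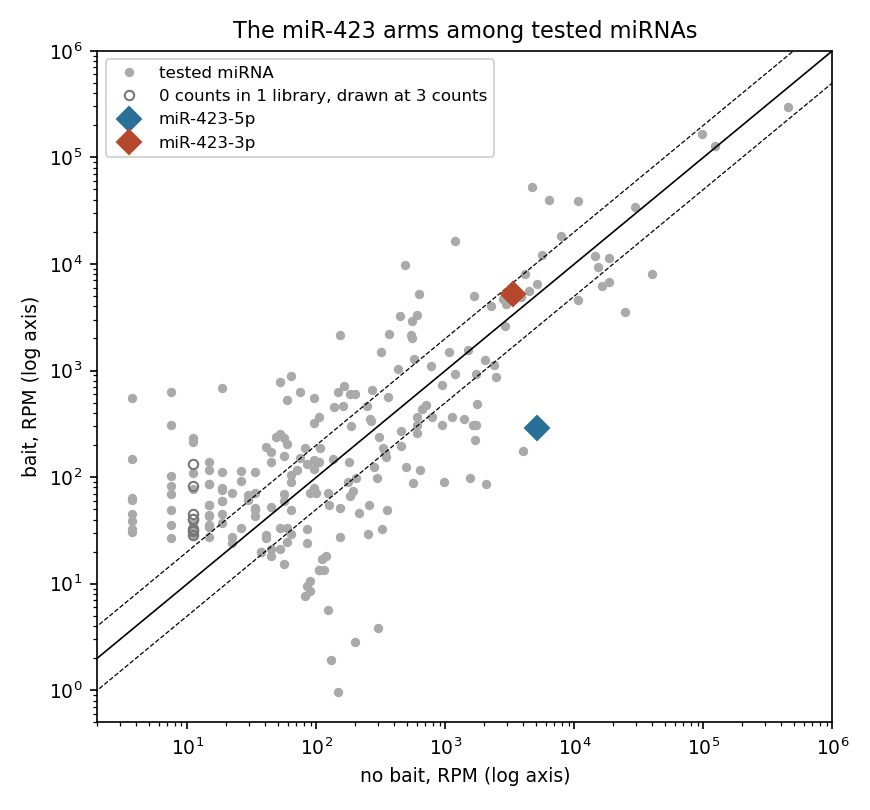
RPM of the 231 tested miRNAs without bait (x) and with bait (y), both on log axes, 1 library each; the solid line marks equal levels and the dashed lines a ratio of 2 in either direction. miR-423-5p (blue) lies far below the lower dashed line at 287 against 5157 RPM, and miR-423-3p (red) lies between the dashed lines. Open circles are miRNAs with 0 counts in 1 library, drawn at 3 counts.

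The 5 tested miRNAs whose log2 ratio came nearest to that of miR-423-5p over the 2 libraries were miR-941, miR-6087, miR-4488, miR-7641 and miR-664a-5p. miR-941, a miRNA with tandem hairpin copies, went from 1553 to 97.4 RPM, a log2 ratio of -4.00. miR-6087 had 33 counts without bait and 6 with it, so its log2 ratio of -4.42 is imprecise. miR-4488 went from 3989 to 177 RPM and miR-7641 from 2054 to 85.9 RPM, with log2 ratios of -4.50 and -4.58. miR-664a-5p went from 983 to 89.8 RPM, 10.9-fold lower. Each of these 5 names had fewer counts without bait than miR-423-5p.

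Within the miR-423 hairpin the leading arm differed between the libraries. The 5p arm took 60.8% of the counts of both arms without bait (1391 of 2289, Clopper-Pearson 95% interval 58.7% to 62.8%). With bait it took 5.18% (301 of 5808, 4.63% to 5.78%). There were 1.55 counts of 5p for each count of 3p without bait and 18.3 counts of 3p for each count of 5p with bait. The arms were thus 28.3-fold apart in their change (exact conditional 95% interval 24.5 to 32.8). This value compares the arms inside each library, so no scaling between libraries alters it.

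Both arms were tested for 34 hairpins, and the median absolute gap between their log2 ratios was 2.06. These include miR-324, which had 0 counts for both arms without bait, so that its gap of -2.21 reflects its bait counts only. miR-423, with a gap of -4.82 (5p minus 3p), had the third widest. Wider gaps were found for miR-106b at 6.74 (107-fold, 29.2 to 891) and miR-25 at -5.84 (57.2-fold, 18.6 to 286). Each of those rested on an arm with few counts, since miR-106b-5p had 2 counts without bait and miR-25-5p had 3 with bait, while the rarest value behind the miR-423 gap was 301 counts. Next came miR-27a at -4.51, miR-10a at -4.10 and miR-27b at -4.06. With miR-423, the 5p arm was the lower arm in 16 of the 34 hairpins.

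The change in arm share was larger for miR-423 than for any other of the 33 hairpins with counts in both libraries, at -55.6 percentage points against a median absolute change of 3.97. Changes nearly as large were found for miR-374a (52.5 points), miR-30e (49.6) and miR-27a (-46.1). In miR-27a the 5p share went from 50.4% without bait (47.1% to 53.7%) to 4.26% with bait. Its 5p arm was called lower and its 3p arm higher. The leading arm differed between libraries in 6 of the 33. In 3 of these the Clopper-Pearson intervals lay on opposite sides of 50% in the 2 libraries. These were miR-423, where 3p led with bait, and miR-374a and miR-30e, where 5p led with bait. miR-374a had 20 counts over its arms without bait, and its 5p share was 15.0% there and 67.5% with bait. miR-30e, whose host gene is NFYC, had a 5p share of 16.5% without bait and 66.2% with bait.

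**Figure D3:**
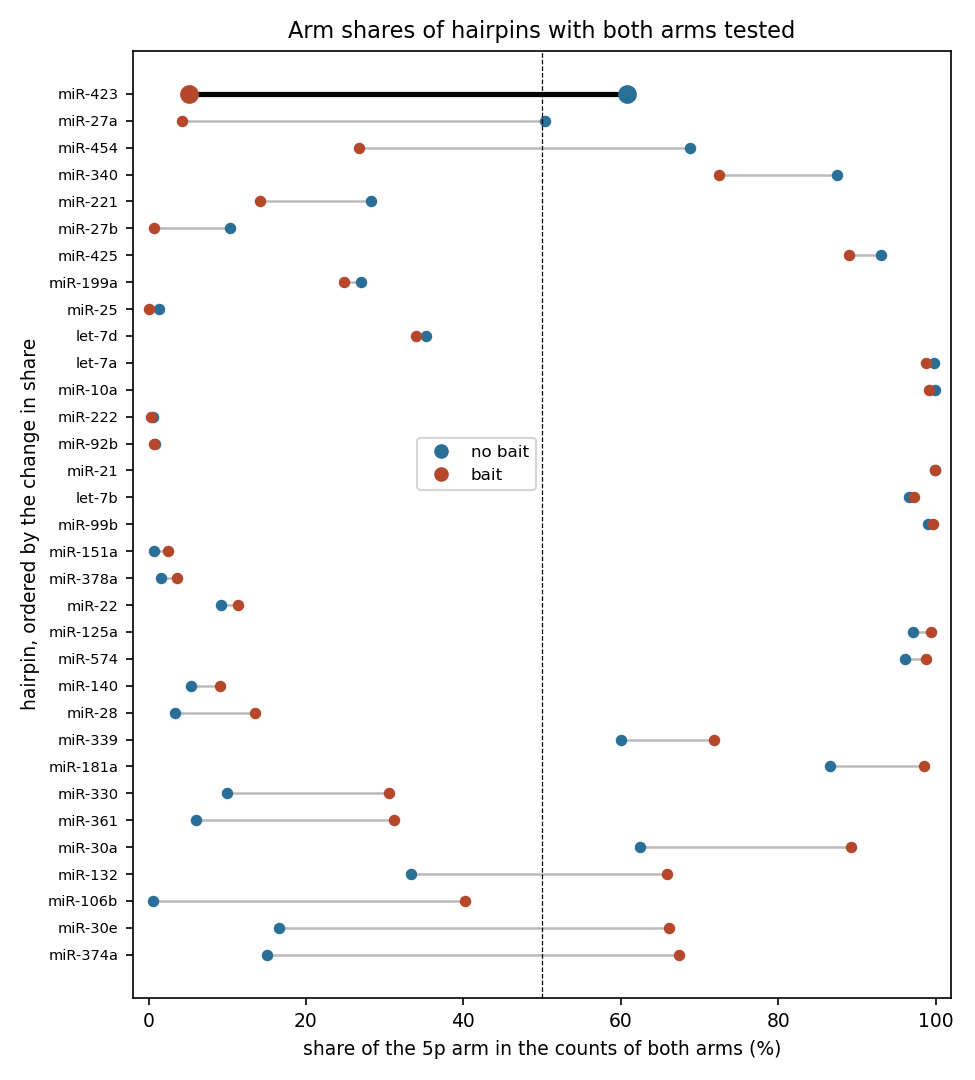
Share of the 5p arm in the counts of both arms (%) for the 33 hairpins with at least 30 counts per arm and counts in both libraries, without bait (blue) and with bait (red), ordered by the change; the dashed line marks 50%. miR-423 (large points) spans 60.8% to 5.18%, the widest change of the hairpins drawn.

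Names annotated opposite to an expressed miRNA were examined for counts. Of all 2588 names 74.8% were at 0 with bait and 81.6% without, so a 0 is common among names of any kind. Among names with a RefSeq sequence, 117 pairs were reverse complements over at least 16 bases, and 42 of them lie at 1 place on opposite strands. Of these 42 pairs 5 had at least 30 counts, and in 4 of the 5 the less abundant name had 0 counts. They included both pairs of the miR-423 locus, with 6405 counts of miR-423-3p and 1692 counts of miR-423-5p facing 0 counts of miR-3184. They also included miR-103a-3p with 1488 counts facing miR-103b with 0. The exception was miR-3074-5p, with 7 counts with bait and 0 without, opposite miR-24-3p with 8520 and 1110 counts. This pair is shown with seeds in capitals, since among these 5 pairs only here did the less abundant name have counts.
miR-24-3p: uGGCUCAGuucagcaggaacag
miR-3074-5p: gUUCCUGCugaacugagccag
The 7 counts of miR-3074-5p made up 0.0726% of the pair, above the 0.0468% that 3 counts would give for miR-3184-5p against miR-423-3p. This comparison, too, assumes that the strands were counted apart.

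The arms of miR-423 differ in composition. miR-423-5p holds 10 G and 3 C in 23 bases, with 1 run of 4 G inside its seed, while miR-423-3p holds 7 G and 8 C. Both are rich in G and C, at 56.5% and 65.2% against a median of 47.8% over the 203 tested miRNAs with a RefSeq sequence. The share of G was 43.5% in miR-423-5p and 30.4% in miR-423-3p, against a median of 23.8%. Across these 203 miRNAs Spearman's rho with the log2 ratio was -0.32 for the share of G, -0.30 for G and C together and 0.0042 for C alone. All points come from the same 2 libraries, and miRNAs are not independent replicates.

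A run of GGGG occurred in 9 of the 203 tested miRNAs with a sequence. Of these 9, 6 were called lower and 2 higher, with a median log2 ratio of -2.69, against 51 lower and 81 higher of the 203 and a median of 0.63. Without miR-423-5p itself 5 of 8 were lower. The lowest and the higher members are shown with the run in capitals, to be set beside miR-423-5p.
miR-4448: ggcuccuuggucuaGGGGua
miR-4488: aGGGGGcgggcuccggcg
miR-361-5p: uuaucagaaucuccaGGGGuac
miR-10a-3p: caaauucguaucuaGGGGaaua
miR-4448 had 81 counts without bait and 4 with it, and miR-4488 1076 and 185. miR-361-5p was 3.18-fold higher from 6 and 74 counts, and miR-10a-3p 6.57-fold higher (1.73 to 55.7) from 2 and 51. The run therefore occurred on both sides. By the share of G alone, a grouping chosen after its values were seen, 11 tested miRNAs were at least as rich as miR-423-5p, of which 8 were lower and 2 higher. Without miR-423-5p itself 7 of 10 were lower, and 5 of 10 with DESeq2 size factors. Under that scaling 37 of the 203 were lower and 101 higher. At a minimum of 100 counts this list without miR-423-5p held 4 names, 2 lower and 2 higher. At that minimum 31 of 130 tested miRNAs with a sequence were lower and 52 higher. The higher names of the list were miR-574-5p at 3.63-fold and let-7b-5p at 3.99-fold.

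By G and C together the picture was mixed. Of 50 tested miRNAs with at least the GC share of miR-423-5p, 20 were lower and 12 higher, with a median log2 ratio of -0.41. With DESeq2 size factors 15 were lower and 15 higher, with a median of 0.0077, where 19% of all tested miRNAs were lower and 49.4% higher. miR-423-3p belongs to this group and passed neither rule. Within hairpins, the arm with more G had the lower ratio in 17 of 26 with a sequence for both arms and unequal shares, and miR-423 was among them. Whether composition had a part in the ratio of miR-423-5p was not tested.

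**Figure D4:**
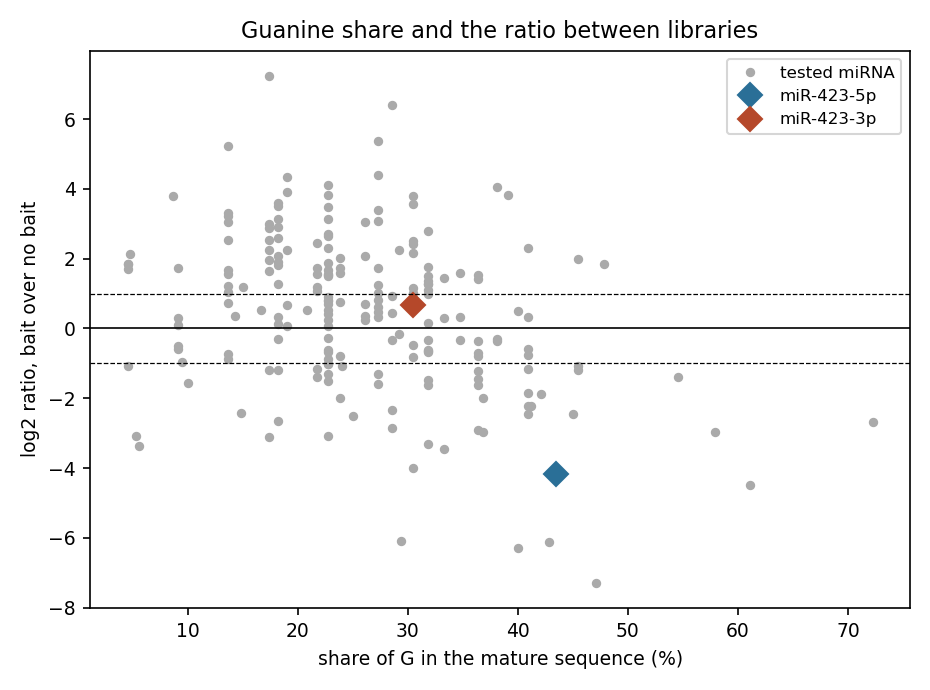
Share of G in the mature sequence (%, x) and log2 ratio of bait over no bait (y) for the 203 tested miRNAs with a RefSeq sequence; the solid line marks equal levels and the dashed lines a ratio of 2 in either direction. miR-423-5p (blue) has 43.5% G and a log2 ratio of -4.17, miR-423-3p (red) 30.4% and 0.66, and rho over all points is -0.32.

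Reference miRNAs were examined as a group because the miR-423 arms are used that way in PCR. All 23 names of a list of common reference miRNAs were tested, of which 12 were higher and 2 lower, where 39.4% of all tested miRNAs were higher and 26.8% lower. The median log2 ratio of the list was 1.17, against 0.55 over all tested miRNAs. With DESeq2 size factors 14 of the 23 were higher, where 49.4% of all tested miRNAs were. miR-423-5p had the lowest ratio of the list, and the other lower member was miR-320a at 0.276 (0.243 to 0.314). At the other end, miR-23a-3p was 20.2-fold higher from 132 and 10330 counts. Among the 4 members with the most counts over both libraries, the ratio was 1.05 for miR-92a-3p and 3.65 for miR-26a-5p. It was 0.819 for miR-25-3p and 0.618 for let-7a-5p, both inside the range of 0.5 to 2, as was miR-423-3p at 1.58. The 2 arms of miR-423 thus stood at the lower end and within the middle of this list.

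The seed of neither miR-423 arm was found in the annotated MACC1-AS1 transcript. The 639 nt transcript of GENCODE version 29 was searched on its sense strand for the complement of bases 2 to 8. The motifs were GCCCCTC for miR-423-5p and miR-3184-5p, ACCGAGC for miR-423-3p and GAGACTT for miR-3184-3p, and each had 0 matches. In 4158 long non-coding transcripts within 10% of that length, they occurred in 4.86%, 1.32% and 5.24%, in that order. The shorter motifs for bases 2 to 7, CCCCTC and CCGAGC, also had 0 matches, and are found in 18.4% and 5.96% of those transcripts. AGACTT, the 6-base match of miR-3184-3p, occurred at positions 215 and 333, and 18.3% of those transcripts hold it. The transcript is 35.2% G and C. No source used here gives the isoform of the bait, and its MS2 tag was not searched.

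In the authors' deposited table miR-423-5p had a log2 fold change of -4.17 with a p-value of 6.61e-08, the eleventh smallest of 2588. In the authors' deposited table miR-423-3p had 0.66 with a p-value of 0.218, and both miR-3184 names were listed at 0 with a p-value of 1. The test behind these p-values is not named, and with 1 library a group it compares libraries rather than conditions.

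As a check of the source, all 7 miRNAs listed as typical of MDA231 cells had counts in both libraries, together 53.4% with bait and 60.2% without. Most of this was miR-100-5p (296361 RPM with bait and 452802 RPM without) and miR-21-5p (167088 RPM and 97328 RPM). Having counts is a weak requirement, so these 7 alone cannot tell MDA231 from other cells. Epithelial markers made up 0.0181% and 0.0111%, with miR-141-3p, miR-205-5p and miR-375 at 0 in both. Blood cell markers made up 0.0432% and 0.0864%, with miR-144-3p, miR-150-5p and miR-223-3p at 0 in both. The summed share of blood cell markers was higher without bait, mostly through miR-486-5p (793 RPM without bait and 369 RPM with it). miR-142-5p went the other way, at 33.4 RPM without bait and 43.0 RPM with it. Whether blood cell material had a part in the ratio of miR-423-5p was not tested.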

How the data were processed

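The authors deposited, per library, a whole-number count and a normalized value for each of 2588 mature miRNA names. That value is an RPM, which matched the deposited count over its library total to within 0.00994 RPM. The submitters' processing notes name BWA. No source used here gives the reference, build, trimming, strand setting or handling of reads that match several names. The authors' deposited table adds a log2 fold change and a p-value, and 4 further per-sample columns in it were not used. The members and lists were chosen with earlier results of these data known.

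Counts were scaled by library totals of 1047269 (bait) and 269716 (no bait). The precision of a ratio follows the smaller of its 2 counts, which for miR-423-5p was the 301 with bait and for miR-423-3p the 898 without. Ratios, exact intervals and calls were computed with SciPy 1.17.1 and tested on simulated data. miRNAs at 0 in 1 library were given a floor of 3 counts there. Mature sequences matched 2281 of 2588 names (RefSeq). Alternatives were edgeR 4.0.16 TMM factors, DESeq2 1.42.0 size factors, totals without the 5 most abundant miRNAs, the deposited RPM, a stricter call, and minimums of 10 and 100 counts or none. Named miRNAs comprised the members, the 5 nearest ratios, the 5 widest arm gaps, opposite-strand pairs, and the reference miRNAs that were most abundant or extreme. Others were chosen after their values were seen.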

Additional observations from a re-analysis of the deposited data

How the results depend on the processing

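No paired analysis was possible because each group holds 1 library. The ratio of miR-423-5p stayed called lower under every alternative run, from 0.0510 with totals lacking the 5 most abundant miRNAs to 0.0747 with DESeq2 size factors. The ratio of miR-423-3p ranged from 1.44 to 2.12 and passed the rule for higher only with DESeq2 size factors, at 2.12. Relative to totals, TMM shifted all log2 ratios by 0.15, DESeq2 by 0.42 and totals without the 5 most abundant by -0.13. Adding the miR-3184 names to their miR-423 counterparts changed nothing, because both have 0 counts. The rank of miR-423 among arm gaps was 7 of 58 hairpins at a minimum of 10 counts and 2 of 15 at 100 counts. The leading arm differed between libraries in 8 of those 58 hairpins and in 4 of those 15. The 91 higher and 62 lower calls among the 231 tested miRNAs became 59 and 37 of 146 at a minimum of 100 counts. They became 95 and 81 of 325 at 10 counts, and 95 and 100 with no count filter. Under DESeq2 size factors they were 114 and 44 of 231. For the GC-rich list 100 counts left 6 higher and 10 lower, and for the GGGG list 0 higher and 3 lower, while a minimum of 10 counts gave 12 lower of 18. The changes under other minimums go partly with the number of names tested. The balance moved too, as with no count filter lower calls rose from 62 to 100 and higher calls from 91 to 95. The minimum was set on summed counts, with the bait library 3.88-fold deeper. A name found only with bait therefore passes it at a lower RPM than a name found only without bait. Leaving miR-423-5p out of the GGGG list and out of the list by G share was chosen after the data were seen. Of 62 alternative values, 53 kept their direction and side of the threshold or size. Several of the 53 could not have differed, so this tally overstates how far the results were tried. These were the values with deposited RPM, with miR-3184 names added at 0 counts, and the miR-423 arm gap under other minimums. Statements on miR-3184 are limited by depth, since 3 counts are 11.1 RPM in the no-bait library, and by the unstated strand setting of the counting.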
